A study of Mus musculus with 14 samples.

Results

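The proteasome subunit genes were followed in mouse embryonic stem cells (mESCs) across steady-state transcript levels, decay after a transcription block and N6-methyladenosine (m6A) peaks. Members were the genes whose symbol is Psma, Psmb, Psmc or Psmd followed by a number, which gave 39 of the 52459 genes in the count tables. Of these, 36 passed a mean of at least 1 FPKM (counts scaled to exon length and to the summed counts of the library) at 0 h over both genotypes, as did 11869 genes in all. The 3 that did not pass were Psmb8, Psmb9 and Psmb11.

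The cells were E14Tg2a mESCs, a line that grows without feeder cells, kept on gelatin in serum with leukaemia inhibitory factor (LIF). WT cells were compared with a METTL14 R255K knock-in made by CRISPR-Cas9 (a lysine in place of an arginine), and METTL14 is the RNA-binding partner of METTL3 in the m6A methyltransferase. The knock-in is a single-colony line, so a property of that colony and an effect of the substitution cannot be told apart. For decay, both genotypes received actinomycin D (5 µg/ml), which blocks transcription, for 0, 4 or 8 h, and 1 mRNA library was made per genotype and time. For m6A, fragmented total RNA was immunoprecipitated with an m6A antibody (MeRIP-seq), with 2 IP and 2 input libraries per genotype behind a single peak list each. No value below has a replicate check and no test was run, since each genotype and time is 1 library. Intervals of folds and of shares of counts cover counting error only, and those of medians and of shares of peaks or genes cover the spread over genes or peaks.

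The proteasome degrades proteins tagged with ubiquitin. Its barrel-shaped core particle (20S) has outer rings of alpha subunits (Psma genes) that gate entry and inner rings of beta subunits (Psmb genes), 3 of which, encoded by Psmb5, Psmb6 and Psmb7, carry the proteolytic sites. The regulatory particle (19S) binds the core, unfolds substrates with a ring of ATPases (Psmc genes) and recognizes and deubiquitinates them with non-ATPase subunits (Psmd genes). Psmd5, Psmd9 and Psmd10 encode chaperones of 19S assembly rather than subunits. Psmb8, Psmb9 and Psmb10 replace the 3 catalytic subunits in the immunoproteasome, Psmb11 belongs to the thymus and Psma8 to the testis. Pluripotent stem cells are known for high proteasome activity. METTL3 and METTL14 deposit m6A mainly at GGAC and related motifs, often near stop codons, and m6A is known to shorten the life of many mRNAs.

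Sequences at the m6A peaks come first. Each line gives the GGAC nearest to a peak summit on the strand of the gene, with 13 bases on either side, from the GRCm38 (mm10) assembly. GGAC is in capitals. The first pair is from Psmd7, which encodes a scaffold partner of the deubiquitinase in the 19S lid and whose peak differed most between genotypes; its 2 lines belong to the WT and the R255K summit.
Psmd7, WT summit, chr8:107580776-107580805, minus strand: attcagtgcttgtGGACaagcgctctgccc
Psmd7, R255K summit, chr8:107581120-107581149, minus strand: tcaacctgctgccGGACgccagcctgcagg
The next 4 lie at peaks in the first exon that both lists hold and whose enrichment was higher in R255K; Psmd1 and Psmd2 encode the large scaffolds of the 19S base, Psmd3 a subunit of the 19S lid and Psmb5 the chymotrypsin-like catalytic subunit. For Psmd1 the GGAC nearest to the WT summit is shown.
Psmd1, chr1:86064744-86064773, plus strand: tggccaggactgtGGACgagtggatcggcg
Psmd2, chr16:20651775-20651804, plus strand: cccccagcggcgcGGACgagaagtcgagtg
Psmd3, chr11:98682692-98682721, plus strand: tgcttcggtccccGGACtaggcctcgaccc
Psmb5, chr14:54617892-54617921, minus strand: gtgcagatctgctGGACttgggtccgggga
The last 4 lie at peaks found in the R255K list without an overlapping WT peak; Psmb3 and Psmb4 encode structural beta subunits, Psmc2 a 19S ATPase and Psmd8 a subunit of the 19S lid.
Psmb4, chr3:94886702-94886731, minus strand: ggccgggatgcggGGACctctgatgcgcgg
Psmc2, chr5:21786852-21786881, plus strand: aagaggaggagaaGGACgacaagcccatcc
Psmd8, chr7:29180386-29180415, minus strand: cgtctcgagctccGGACccgcggccacctc
Psmb3, chr11:97703882-97703911, plus strand: agatggtgaccacGGACttccagaagatct
A GGAC stood within 100 bp of the summit at 6 of the 9 WT peaks and 10 of the 14 R255K peaks on proteasome genes. There was none at Psmd5, Psma4 and Psmd11 in either list, nor at Psmd13 in R255K. Over all exonic peaks, each taken with each gene it lies on, the shares were 77.6% in WT and 80.4% in R255K. A match describes the letters of the window and does not locate the modified base.

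m6A peaks were weak on proteasome mRNAs, and in WT they were called on a smaller share of these genes than of all genes. In WT cells 9 of the 39 genes held a peak on an exon, 1 each, and in R255K cells 14 did. Among the 36 genes past the filter this was 8 in WT (22.2%, 95% Wilson interval 11.7 to 38.1%) against 57.4% of all expressed genes, and 13 in R255K (36.1%, 22.5 to 52.4%) against 43.6%, which lies inside that interval. The median fold enrichment at the summit (IP over local background) was 2.51 over the 9 WT peaks and 2.35 over the 14 R255K peaks. Over all exonic peaks the medians were 6.17 and 5.50, and only 4.92% of exonic WT peaks lay below the median of the proteasome peaks. The read depth behind the lists is unknown, so a gene without a peak is one where none was called.

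None of the 9 WT peaks lacked an overlapping R255K peak, where 47.9% of all exonic WT peaks did; 0 of 9 allows a share of up to 33.3%. In the other direction 5 of the 14 R255K peaks had no WT counterpart (35.7%, exact interval 12.8 to 64.9%), against 13.1% of all exonic R255K peaks. Psmb4, Psmc2, Psmd8, Psmd13 and Psmb3 carried these 5. With a fold enrichment of at least 4, only 3 WT peaks (Psmd5, Psmd7 and Psmb9) and 2 R255K peaks (Psmb4 and Psmb9) were left, and 2 of those 3 WT peaks then had no R255K partner.

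Of the 9 shared peaks, 5 had a lower fold enrichment in R255K (70.6% over all shared exonic peaks) and 4 a higher one, and the sides followed the position in the transcript. The 4 peaks with a summit in the last exon were all weaker in R255K. The widest gap was at Psmd7, whose peak (chr8:107580435-107581401) had an enrichment of 4.83 in WT with the summit 54 bases past the stop codon, and of 1.95 in R255K with the summit 230 bases before it. Psmd5 (chr2:34852463-34852818), whose summit lay 62 bases before the stop codon in WT, had 4.12 and 2.97. Psma4 (chr9:54957662-54957962), which encodes an alpha-ring subunit, had 3.18 and 2.13, with the WT summit 21 bases into the 3′UTR. Psmd11 (chr11:80471960-80472302), a 19S lid subunit, had 2.51 and 2.08, with the WT summit 413 bases into the 3′UTR.

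The peaks at the other end had a higher fold enrichment in R255K or were called there alone. Most of these enrichments were low, and each comes from a single peak list per genotype. Whether these peaks hold m6A made by METTL3 and METTL14 was not tested, so they do not show a gain of it in R255K. Those shared by both lists were in the first exon of Psmd1 (2.50 in WT, 3.15 in R255K), Psmd2 (2.11 and 2.43), Psmd3 (1.97 and 2.37) and Psmb5 (2.06 and 2.34), with WT summits from 33 bases before to 123 bases after the start codon. The R255K peaks of Psmd8 (1.80) and Psmd13 (2.07) were also in the first exon, and those of Psmc2 (3.31) and Psmb3 (1.78) in the second. The Psmb4 summit, at 4.01 the strongest of the 5, lay 222 bp into the gene in an exon annotated as noncoding. Psmb9 stood apart: its peak, 6.83 in WT and 4.59 in R255K, had its summit upstream of the gene and also overlapped Tap1, the divergent neighbour that encodes a peptide transporter subunit, so the transcript behind it cannot be told apart.

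**Figure D1:**
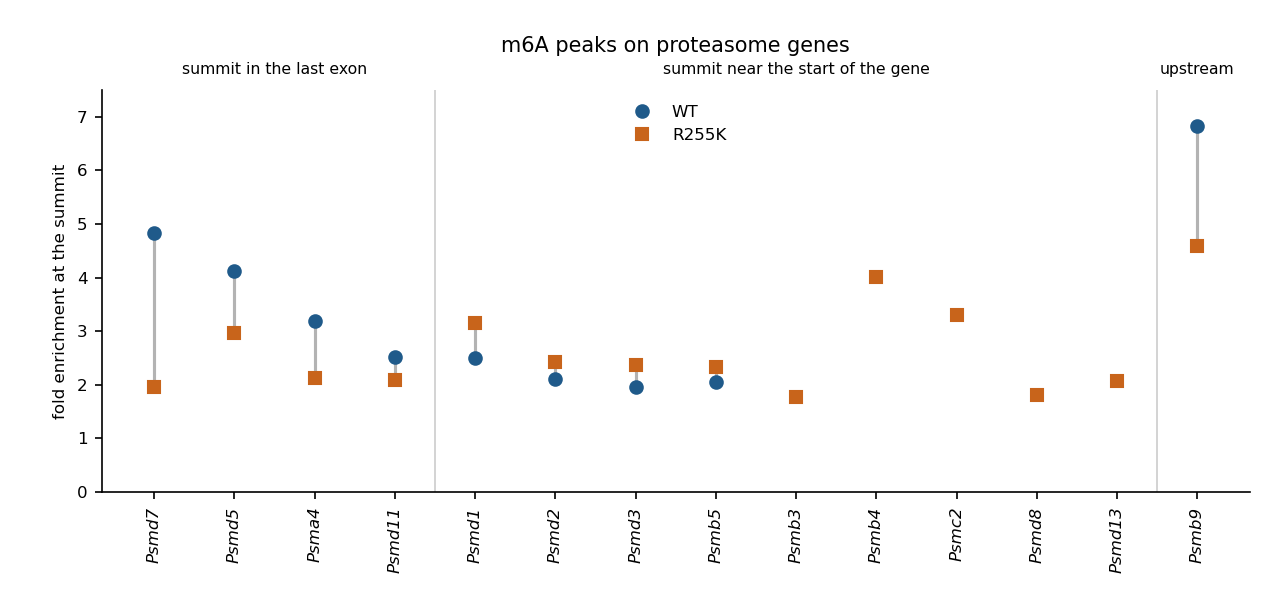
Fold enrichment at the summit (vertical axis, linear from 0) of each m6A peak on a proteasome gene in the WT list (circles) and the R255K list (squares), joined where the peaks overlap. The 4 last-exon peaks were lower in R255K, and the 4 shared peaks near the start of the gene were higher.

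The division by position was drawn after the values were seen, so the same counts over all genes stand beside it. Over principal transcripts of 3 or more exons, 48.2% of WT peaks with a last-exon summit and 39.1% of those in the first 2 exons had no R255K counterpart, against 0 of 4 and 0 of 4 on proteasome genes. Among shared peaks, 76.9% of those with a last-exon summit were weaker in R255K, and 59.3% of those with a summit in the first 2 exons. R255K peaks without a WT counterpart made up 2.20% of last-exon peaks and 30.7% of peaks in the first 2 exons; among proteasome genes the counts were 0 of 4 and 4 of 8. Summits in the first 2 exons were 4 of 8 on proteasome mRNAs in WT and 8 of 12 in R255K, against 17.3% and 25.7% over all genes. Transcript levels at 0 h were above those of WT for the 5 genes with a peak in R255K alone, as they were for 27 of all 36 members, by 1.75-fold for Psmd13, 1.40-fold for Psmb3, 1.16-fold for Psmb4, 1.09-fold for Psmd8 and 1.08-fold for Psmc2. With ribosomal protein scaling the log2 ratios of Psmd8 (−0.02) and Psmc2 (−0.04) were below 0. The part of expression in peak detection was not tested.

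**Figure D2:**
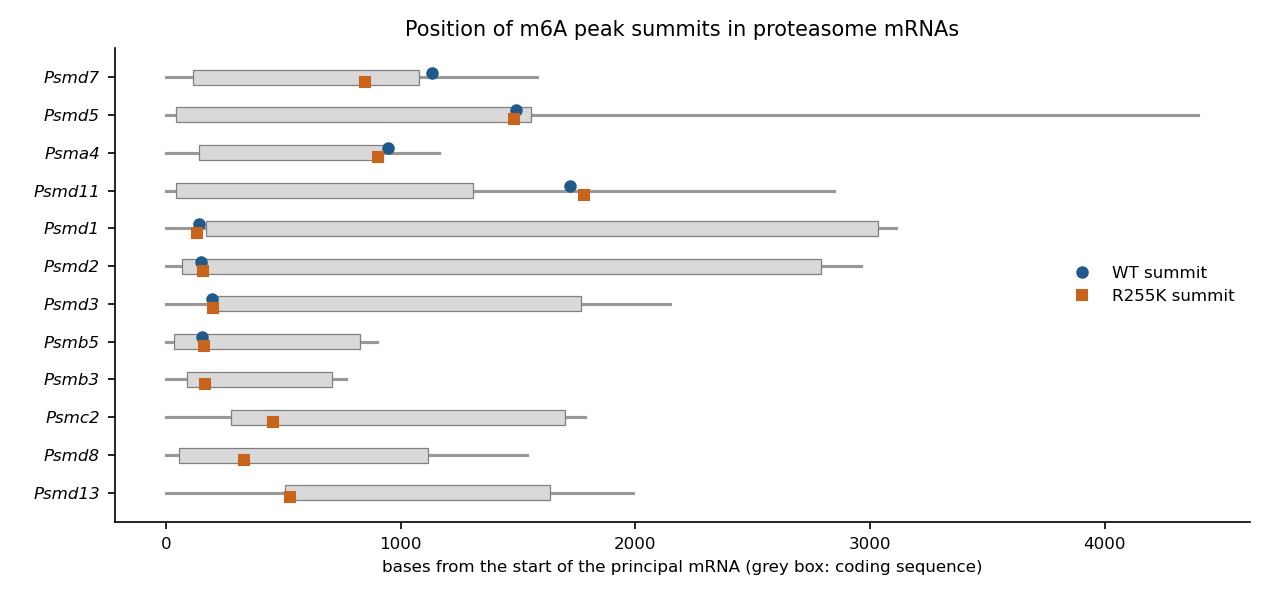
Position of peak summits along the principal mRNA of 12 proteasome genes, in bases from its start (line: mRNA, box: coding sequence; circles: WT, squares: R255K). Summits fall in the last exon for the upper 4 genes and in the first or second exon for the other 8.

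The transcripts themselves were abundant. The 31 constitutive subunit genes had a median of 89.9 FPKM at 0 h in WT, from 37.5 for Psmc2 to 210 for Psmb1, a beta-ring subunit. In R255K the median was 119 FPKM, from 40.6 for Psmc2 to 321 for Psmc5, a 19S ATPase. These medians were above 94.5% and 95.8% of expressed genes. The exon length behind FPKM can differ from the length of the principal mRNA. It was 5031 against 1785 bases for Psmc2 and 1036 against 1758 for Psmb1. The order of levels between genes, with its lowest and highest member, therefore depends on the length used. All 39 genes together took 0.797% of the counts in WT at 0 h (Wilson interval 0.793 to 0.801%) and 0.981% in R255K (0.976 to 0.986%). The order of the 31 levels was alike between genotypes at 0 h (Spearman's rho 0.92 across genes, which are not independent replicates and share 1 library each).

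The assembly chaperones and, Psmb10 aside, the variant subunits were below every constitutive one in each library, Psmd10 least so: it reached 28.0 FPKM in R255K at 4 h, where Psmc2 was at 38.8. Psmd5, Psmd9 and Psmd10 were at 17.9, 4.76 and 17.7 FPKM in WT at 0 h. The exon length was 7230 bases for Psmd5 and 7248 for Psmd9, against 4397 and 2597 in the principal mRNA. Their distance from the constitutive subunits therefore also depends on the length used. Psma8 was at 6.81 FPKM in WT and 6.76 in R255K. Psmb11, the thymus subunit, was at 1, 0 and 0 counts over the WT series and at 1 in each R255K library.

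**Figure D3:**
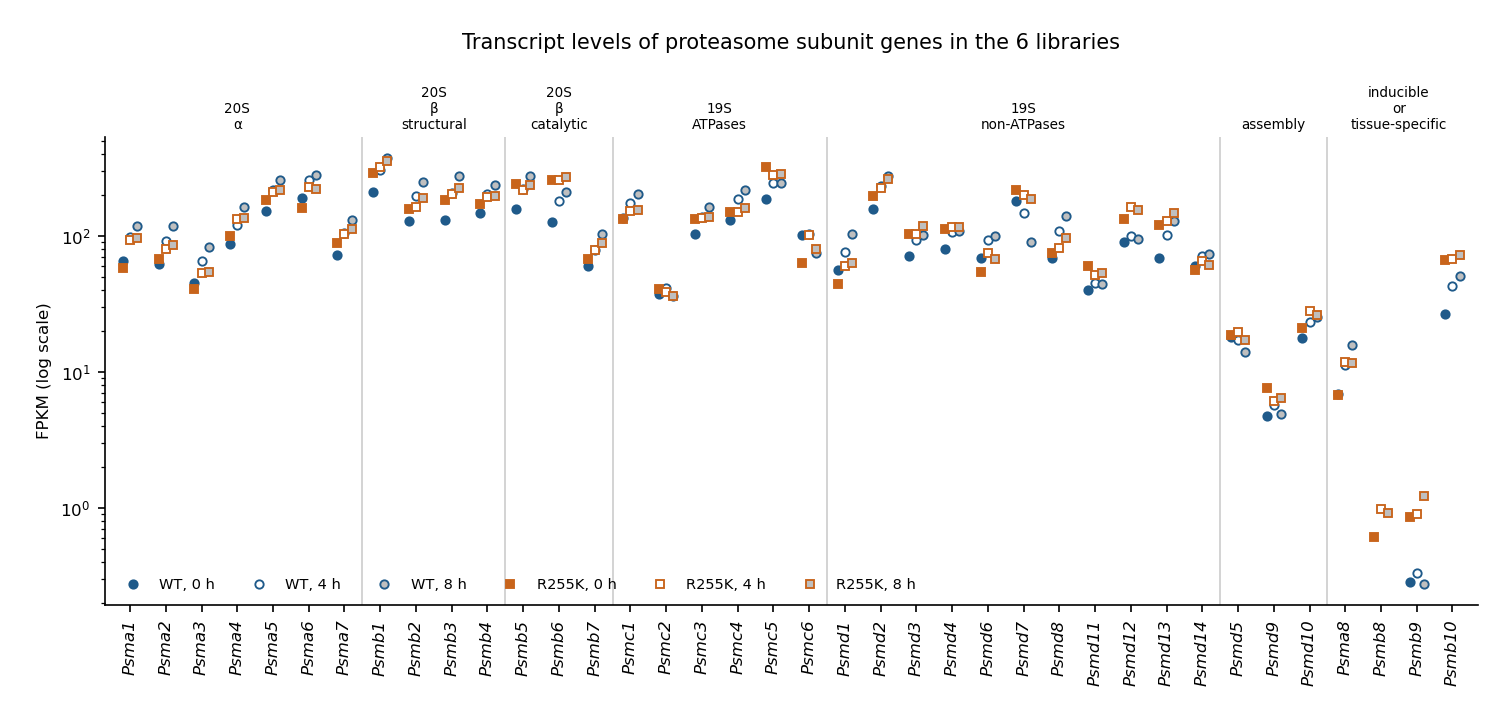
FPKM (log axis) of 38 proteasome genes in the WT (circles) and R255K (squares) libraries at 0, 4 and 8 h of actinomycin D, by subunit group; Psmb11 is left out and libraries at 0 are not drawn. Constitutive subunits lie between 35.8 and 372 FPKM in all 6 libraries, with Psmb8 and Psmb9 near or below 1.

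At 0 h, before any block, most proteasome transcripts were slightly higher in R255K. The median log2 ratio of R255K to WT, on the log2(FPKM + 1) scale used for every log2 value here (folds are plain ratios of FPKM), was 0.25 (order-statistic interval 0.12 to 0.47, n = 36 genes), against 0.05 over all expressed genes. Of the 36 genes, 27 were above 0, where 53.5% of all genes were. At least 1.5-fold higher were 6 of 36, against 17.0% of all genes, and at least 1.5-fold lower was 1, against 15.7%. The share past the fold in the higher direction was near the background, while the share above 0 was larger than it.

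Psmb10, the inducible counterpart of the trypsin-like subunit, had the highest ratio. Its FPKM was 26.4, 42.7 and 50.5 in WT at 0, 4 and 8 h and 65.9, 67.5 and 72.4 in R255K. At 0 h the ratio was 2.50-fold (interval 2.29 to 2.72). Psmb6, the caspase-like catalytic subunit, had 125, 181 and 211 FPKM in WT and 255.2, 256 and 272 in R255K, and was 2.04-fold higher at 0 h (1.96 to 2.12). The 3 libraries of a genotype are different times rather than replicates, so their levels were not compared as groups. Psmc5 followed at 1.74-fold (1.68 to 1.81), with 185, 243 and 243 FPKM in WT and 321, 279 and 287 in R255K. These 3 genes were also past the fold with TMM, DESeq2 and ribosomal protein scaling and after a GC correction.

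Psmd13, a 19S lid subunit, was 1.75-fold higher (1.68 to 1.82), with 68.5, 101 and 129 FPKM in WT and 119, 128 and 146 in R255K, so that the highest WT level exceeded the lowest R255K level. It too was past the fold under those 4 settings. Psmb5 was 1.52-fold higher (1.44 to 1.60), with 157, 221 and 274 FPKM in WT and 238, 217 and 236 in R255K, and Psmd9 1.61-fold (1.45 to 1.79) at a low level. Neither of these 2 reached the fold with TMM, DESeq2 or ribosomal protein scaling. The third catalytic gene, Psmb7, had a log2 ratio of 0.18.

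Psmc6, another 19S ATPase, was the only member past the fold in the other direction, at 0.62-fold (0.58 to 0.66). Its FPKM was 102, 102 and 74.8 in WT and 63.3, 100 and 80.0 in R255K, so that the low value was in the R255K 0 h library alone. Psmc6 has 39.0% GC in its exons, near the low end of the members, and with the GC trend of the ratio over all genes subtracted its log2 ratio was 0.04. With that correction 11 members were at least 1.5-fold higher and 0 lower, adding Psma2, Psmb7, Psmd10, Psmd11, Psmd12 and Psmd14 and dropping Psmb5.

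By role, the catalytic subunits had the highest median log2 ratio at 0 h among the constitutive groups, 0.60 for 3 genes, and the alpha ring the lowest, 0.12 for 7 genes. The catalytic values were 0.18 for Psmb7, 0.60 for Psmb5 and 1.02 for Psmb6, which lies on chromosome 11. No alpha-ring gene lies on that chromosome, and role was not separated from chromosome in this order. The 4 structural beta subunits had 0.38 (range 0.21 to 0.48), the 6 ATPases 0.14, the 11 non-ATPases 0.29 and the 3 assembly chaperones 0.23. With the GC trend subtracted the catalytic median was 0.66 and that of the alpha ring 0.34, and the ATPases were then lowest at 0.17.

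Position in the genome moved with the ratio. All 6 proteasome genes of chromosome 11 (Psmb3, Psmb6, Psmc5, Psmd3, Psmd11 and Psmd12) were above 0, from 0.48 to 1.02, with a median of 0.56. The 984 expressed genes of that chromosome had a median of 0.53, and genes elsewhere 0.01. Psmd13 lies on chromosome 7 beyond 140 Mb, where the median over 72 genes was 0.66. This window begins shortly before Psmd13 (base 140881968), which is itself among the 72 genes. No value for the rest of chromosome 7 or for other windows stands beside it. The 30 proteasome genes off chromosome 11 had a median of 0.19, and the 29 left without Psmd13 one of 0.18. Gene dosage was not measured here, and its part in these ratios was not tested.

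**Figure D4:**
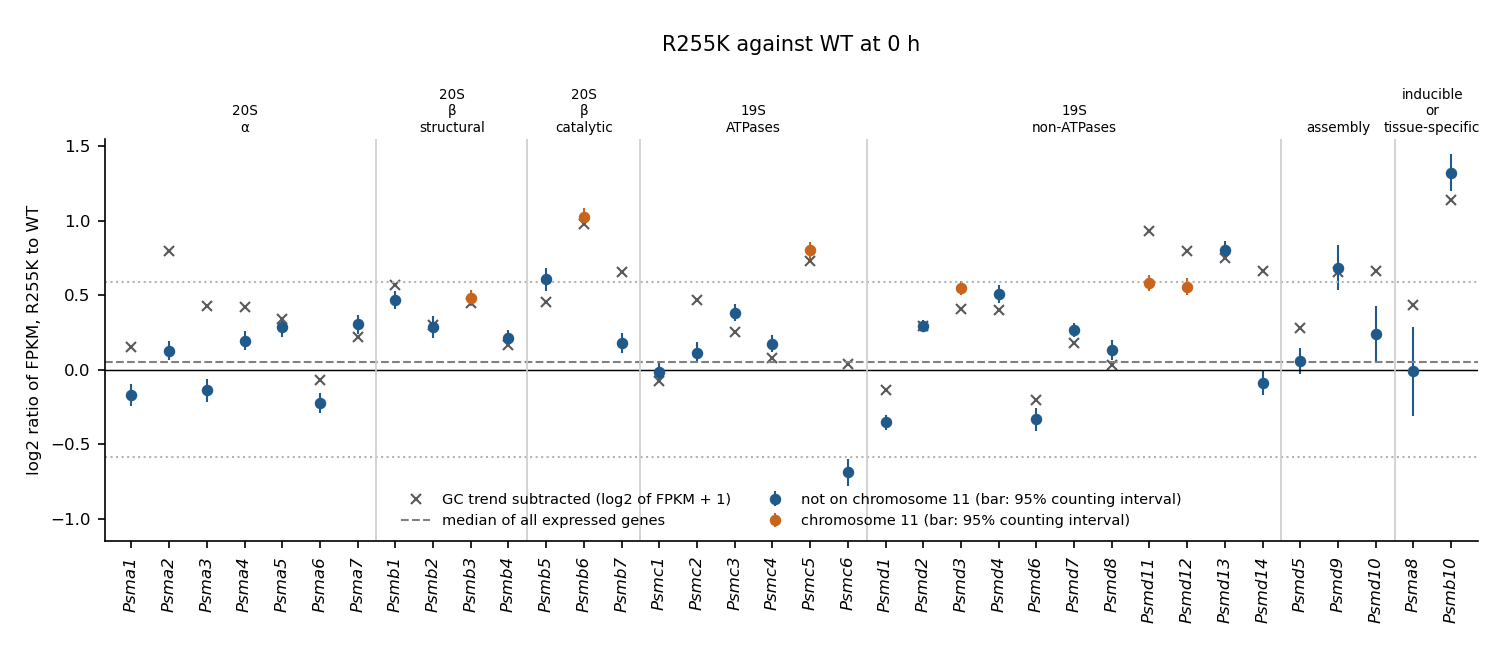
Log2 ratio of FPKM, R255K to WT, at 0 h for the 36 expressed proteasome genes (points; bars are 95% counting intervals; orange: chromosome 11), with the GC-corrected ratio as crosses, the all-gene median dashed and the 1.5-fold limits dotted. Psmb10 and Psmb6 stand highest and Psmc6 lowest, and the cross of Psmc6 lies at 0.04.

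The immunoproteasome genes were all higher in R255K. Psmb8 was without a count in each WT library, while the R255K libraries held 26, 50 and 47, which is at least 9.66-fold higher at 0 h against a floor of 3 counts in the WT library. Psmb9 was counted 18, 18 and 14 times over the WT series and 49, 61 and 84 times over the R255K series, 3.03-fold at 0 h (interval 1.74 to 5.53). Both were at 1.22 FPKM or less in every library, far below Psmb10.

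Genes commonly induced with these subunits were taken from a list of 11. Of the 7 past the filter, all 7 were above 0 at 0 h, against 53.5% of all genes, and 4 at least 1.5-fold higher (Irf1, which lies on chromosome 11, H2-K1, H2-D1 and Psme2), against 17.0%. H2-K1, a classical MHC class I gene, had 5.90, 10.6 and 12.7 FPKM in WT and 26.3, 29.1 and 35.9 in R255K. Below the filter, Tap1 was at 28 counts in WT and 96 in R255K at 0 h. Fibroblast markers moved along: their summed level was 1.64 to 2.20 FPKM over the WT libraries and 5.94 to 7.11 over the R255K libraries, Col1a1 had 9 and 150 counts at 0 h and Thy1 81 and 188, while Lum was at 0 in all 6 libraries and Postn at 2 counts or fewer. Of the 6 markers, 1 passed the filter (Thy1). Their part in the immunoproteasome levels was not tested, and more cells of a type cannot be told apart from more RNA per cell. All 8 embryonic stem cell markers were expressed, at 80.4 FPKM or more in both 0 h libraries. Of these, 7 had a log2 ratio below 0 at 0 h, where 53.5% of all genes were above 0, and the median over the 8 was −0.31. At least 1.5-fold lower was 1, Esrrb (0.46-fold), against 15.7% of all genes. At least 1.5-fold higher was also 1, Utf1 (1.53-fold), against 17.0%. Dppa5a was at 0.68-fold. The part of this difference in the proteasome ratios was not tested. Mettl14 itself was at 0.49-fold in R255K at 0 h (0.43 to 0.56); gene counts do not read the substitution, so they do not check the genotype.

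After the block, most proteasome transcripts gained share in the WT libraries. Values are relative to each library, so a transcript that decays slower than the rest gains share. From 0 to 8 h in WT the median log2 change was 0.73 (0.51 to 0.84, n = 36) against −0.47 over all expressed genes, a distance of 1.20. At least 1.5-fold higher at 8 h were 22 of 36 genes, against 16.1% of all genes, and at least 1.5-fold lower was 1, against 46.5%. Above 0 were 32 of 36, against 36.1%. The 4 h library lay between, at 0.45 for the proteasome genes and −0.14 for all.

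In R255K the same genes stood closer to the rest, and the spread over all expressed genes was narrower too. Its quartiles at 8 h were −1.42 and 0.32 in WT and −0.64 and 0.23 in R255K. Pou5f1 (0.85 in WT, 0.37 in R255K) and Dppa5a (0.97 and 0.49) also changed less in R255K. They were the 2 embryonic stem cell markers at least 1.5-fold higher at 8 h in WT. Whether the smaller distance is particular to proteasome genes was not tested. The median log2 change was 0.24 (0.12 to 0.32) against −0.10 over all genes, a distance of 0.34. At least 1.5-fold higher were 2 genes, Psma1 (0.74) and Psma8 (0.69), against 4.87% of all genes; 0 were lower, where 26.8% of all genes were. Above 0 were 29 of 36, against 43.7%.

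The change in R255K minus that in WT had a median of −0.41 over the proteasome genes (−0.55 to −0.33) and 0.27 over all genes. It was below 0 for 32 of 36 members, while 64.7% of all genes were above 0. At least 1.5-fold lower were 10 members, against 7.44% of all genes, and at least 1.5-fold higher were 2, Psmc6 and Psmd7, against 34.3%. The difference uses the 0 h libraries again, so it is not independent of the 0 h ratios, and for Psmc6 the difference was 0.07 after GC correction.

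Scaling decides how many genes pass the fold after a block. At least 1.5-fold higher at 8 h in WT were 31 members with TMM and 33 with DESeq2 size factors, and 0 with ribosomal protein scaling, where 5 were lower; for the difference 26, 32 and 0 members were lower. Scaling moved the all-gene medians, in WT from −0.99 with ribosomal protein scaling to 0.05 with DESeq2 size factors. The distance of the proteasome median from the all-gene median was also taken over the 4 scalings. It was 0.99 to 1.39 in WT, 0.29 to 0.38 in R255K and −0.85 to −0.54 for the difference. Each scaling is 1 factor per library and moves members and all genes nearly alike, so this distance cannot test the choice of scaling. With ribosomal protein scaling the median difference itself was 0.09, and the all-gene median was 0.63.

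At 8 h most members were lower in R255K than in WT, except with ribosomal protein scaling. The median log2 ratio of R255K to WT was −0.02 at 4 h and −0.21 at 8 h, against 0.18 and 0.33 over all genes. With ribosomal protein scaling the 8 h median was 0.15 and 27 of 36 were above 0, against an all-gene median of 0.55, so the direction depends on the scaling. Above the all-gene median at 8 h were 5 of 36 members, and 3 with TMM, 2 with DESeq2 size factors and 9 with ribosomal protein scaling. At 4 h 15 of 36 were above 0 (62.7% of all genes), 2 at least 1.5-fold higher (25.6%) and 0 lower (7.29%). At 8 h 13 of 36 proteasome genes were above 0 (68.0% of all genes) and 23 below, all 7 of the alpha ring and all 4 structural beta genes among them. At least 1.5-fold higher were Psmd7 (1.03) and Psmd12 (0.70), against 36.6% of all genes, and at least 1.5-fold lower were Psmd1 (−0.71) and Psma3 (−0.59), against 8.20%.

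**Figure D5:**
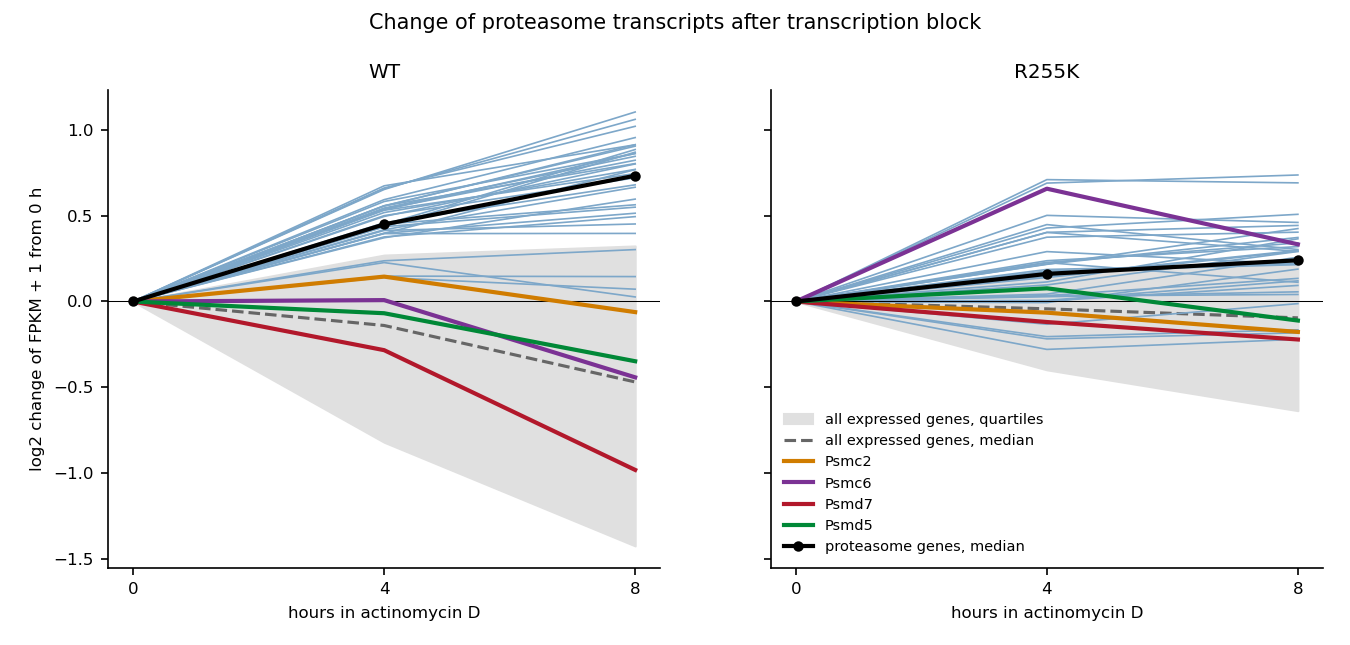
Log2 change from 0 h (vertical axis, FPKM + 1) over hours in actinomycin D in WT and R255K for 36 proteasome genes (thin lines), their median (black), and the median and quartiles of all expressed genes (dashed, grey). The proteasome median reaches 0.73 in WT and 0.24 in R255K at 8 h, and Psmd7 ends lowest in both.

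Among the groups, the core particle had the higher changes in WT. All 7 alpha-ring genes (0.56 to 0.91), all 4 structural beta genes (0.68 to 1.06) and all 3 catalytic genes (0.74 to 0.80) were above 0. The 5 highest in WT were Psma8 (1.10), Psmb3 (1.06), Psmd8 (1.02), Psmb2 (0.95) and Psma2 (0.91). In R255K the 5 highest were Psma1 (0.74), Psma8 (0.69), Psmd1 (0.51), Psma6 (0.46) and Psma4 (0.44). Psmb3 illustrates the difference between genotypes, with 131, 207 and 274 FPKM over time in WT and 183, 203 and 225 in R255K.

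The 19S genes were more spread, from −0.98 to 1.02 in WT. Psmd7 was the 1 member at least 1.5-fold lower at 8 h. It had 179, 147 and 90.3 FPKM in WT (7058, 4980 and 2820 counts) and 216, 198 and 185 in R255K (7629, 8347 and 7866 counts). The 8 h level was 0.50-fold that at 0 h in WT (0.48 to 0.53) and 0.86-fold in R255K (0.83 to 0.88). The change was below 0 in both genotypes under each scaling. Psmd7 is also the member with the widest gap in last-exon enrichment, described above, and 1 gene in 1 line gives no test of a relation between the 2 readouts.

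The other members with low changes in WT were Psmc6 (−0.44), Psmd5 (−0.35), Psmc2 (−0.06) and Psmd9 (0.03). Psmc2 was at 37.5, 41.6 and 35.9 FPKM in WT and 40.6, 38.8 and 35.8 in R255K, within a narrow band in both. Psmd5 had 17.9, 17.0 and 13.8 FPKM in WT and 18.6, 19.7 and 17.2 in R255K. In R255K the lowest were Psmd7 (−0.22), Psmd9 (−0.22), Psmd11 (−0.18), Psmc2 (−0.18) and Psmc5 (−0.16), near the all-gene median of −0.10. A decay rate was taken as the mean of the exponential rates from 0 to 4 h and from 0 to 8 h, without a fit. The rate was positive for 3 of 36 members in WT, against 59.2% of genes with a rate. Half-lives were 10.3 h for Psmd7, 31.1 h for Psmd5 and 37.2 h for Psmc6. In R255K the rate was positive for 6 of 36, against 54.4% of genes. With TMM and DESeq2 size factors the WT changes of Psmd5 (0.15 and 0.32) and Psmc6 (0.08 and 0.25) were above 0, and that of Psmd7 was −0.46 and −0.28, against −0.98 here and −1.71 with ribosomal protein scaling, so all 3 half-lives depend on the scaling.

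Members with and without a WT peak were also set side by side. The 8 expressed members with a WT peak had a median change of 0.66 in WT and 0.09 in R255K, and the 28 without one 0.73 and 0.27. Over all expressed genes the medians were −1.03 and −0.30 with a peak and 0.18 and 0.12 without. Of the 4 genes with last-exon peaks, Psmd7 and Psmd5 were below 0 in WT, while Psma4 (0.88) and Psmd11 (0.15) were above.

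Genes that serve the proteasome were counted in the same way. Of 37 listed names outside the rule, 34 were in the tables and all 34 passed the filter. At 0 h 6 of the 34 were at least 1.5-fold higher in R255K (17.0% of all genes) and 2 lower (15.7%). From 0 to 8 h 6 were higher (16.1%) and 8 lower (46.5%) in WT, and 1 was higher (4.87%) and 6 lower (26.8%) in R255K. Pomp, the core assembly chaperone, had a change of 1.06 in WT and 0.44 in R255K, near the core subunits, and Psmg3, another assembly factor, −2.01 and −0.96. Psmf1, an inhibitor of the core, was 2.32-fold higher at 0 h (2.09 to 2.57), and Psme4, an activator cap on chromosome 11, was at 0.60-fold (0.58 to 0.63). The FPKM of Psme4 was 40.8, 42.8 and 36.8 in WT and 24.5, 44.3 and 40.6 in R255K. Its low value was thus in the R255K 0 h library alone. Nfe2l1, the transcription factor that drives subunit genes when proteasome activity falls, lies on chromosome 11 and had 46.5, 29.1 and 15.3 FPKM in WT and 70.1, 56.5 and 60.3 in R255K, a change of −1.55 against −0.21. Akirin2, which brings proteasomes into the nucleus, had a change of −4.25 in WT and −3.15 in R255K.

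Promoters, 250 bases before to 50 after the start, were matched in RefSeq (GRCm38) for 32 of the 39 members. TGACNNNGC, the core of the element bound by NRF1, was found on either strand in 5 of their 34 promoters (14.7%; Psmb5, Psmb6, Psmc6, Psmd12 and Psmd9) and in 12.4% of all 32851 promoters. CCAAT was found in 13 (38.2%) and in 37.4%. Both shares were near those of all genes.

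For some members the count itself is uncertain. Matches of at least 95% identity and 200 bp elsewhere in the genome covered most of the transcript of Psma4, Psma5, Psmb3, Psmb5, Psmd2 and Psmd11, with a highest identity of 99.0% for Psmb5, so reads of these genes may have a second match. Another gene overlapped 25.5% of the exon length of Psmd9 (Gm26745), 12.5% of Psmb5 (Mir686), 11.8% of Psmb7 (Nek6) and 10.1% of Psmd13 (Sirt3), and the strand setting of the counts is not given in the sources used here. Library depth was 13812160 to 18813640 summed counts.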

How the data were processed

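The mRNA libraries of WT and METTL14 R255K mESCs (6) and the MeRIP libraries (8) were analysed from deposited counts and peak lists. Per the paper and the labels, the authors removed rRNA reads with Bowtie2 2.2.6, ran HISAT2 on mm10 and filtered for uniquely aligned reads (Picard 2.16.0, SAMtools 0.1.09). The deposited counts are raw reads per gene; the counting tool, annotation release and strand setting are not given in the sources used here. The authors called peaks with MACS2 against input, and each deposited peak list gives the fold enrichment at the summit and the −log10 q; how the IP libraries were combined is not given in the sources used here.

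FPKM was computed from counts, exon length and summed counts (13812160 to 18813640 per library). Genes with a mean of at least 1 FPKM at 0 h were kept, and ratios were taken on log2(FPKM + 1). Calls used a fold of 1.5 without a test, since each group is 1 library. Intervals are 95% exact conditional binomial intervals of count ratios, order-statistic intervals of medians, and Wilson or exact intervals of shares. PCR reads carry no molecular identifiers, so intervals of count ratios and count shares cover counting error only; those of medians and of peak or gene shares cover the spread over genes or peaks, and none covers replicates. Peaks were assigned to exons by at least 1 bp, and a peak was shared if any base overlapped. Positions are from GENCODE on GRCm38; 32 of 39 members had the same span there. Named members were those with a peak in either genotype, past the fold at 0 h, among the 5 lowest or 5 highest changes in a genotype, catalytic, inducible or tissue-specific, or on chromosome 11; Psmd10 and the genes added by the GC correction or past the fold at 8 h were named after their values were seen. The members and lists were chosen with earlier results of these data known. Alternatives were edgeR 4.0.16 TMM factors, DESeq2 1.42.0 size factors, scaling to ribosomal protein genes, a GC trend (lowess span 0.3) subtracted, other filters and pseudocounts, chromosome 11 left out, other time pairs and stricter peaks. Python 3.11.15, scipy 1.17.1 and blastn 2.17.0 were used, and the scripts were tested on simulated counts. The values of 1 listed gene below the filter are not reported here.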

Additional observations from a re-analysis of the deposited data

Results flagged for a closer look

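In 3 proteasome genes the change from 0 to 8 h had opposite directions in the 2 genotypes, each past its counting interval. The difference was not tested, as each genotype and time is 1 library. Psmc5 had a log2 change of 0.40 in WT and −0.16 in R255K, a difference (R255K minus WT) of −0.56. Psmd11 had 0.15 and −0.18, a difference of −0.33. Psmc6 had −0.44 and 0.33, a difference of 0.77. Under other scalings the WT change of Psmc6 was 0.08 (TMM) and 0.25 (DESeq2 size factors), that of Psmc5 was −0.33 and that of Psmd11 −0.57 with ribosomal protein scaling, and the Psmd11 difference was then 0.18. With DESeq2 size factors the R255K changes of Psmc5 (0.05) and Psmd11 (0.03) were above 0, as in WT. With the GC trend subtracted those of Psmc6 were 0.04 in WT and 0.16 in R255K. Without that correction its changes from 4 to 8 h alone were −0.45 and −0.32. Psmc5 and Psmd11 lie on chromosome 11, whose genes had a median 0 h ratio of 0.53.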

How the results depend on the processing

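No paired analysis was possible because replicate numbers exist for the MeRIP libraries alone, whose deposited peak lists pool them, and each time-course group is 1 library. For the same reason no replicate could be left out. The median change over the 36 members in WT (0.73) was 1.25 with TMM, 1.43 with DESeq2 size factors and 0.0024 with ribosomal protein scaling, and 0.45 from 0 to 4 h and 0.23 from 4 to 8 h. In R255K (0.24) it was 0.37, 0.45 and 0.028 under these scalings, and 0.043 from 4 to 8 h. The difference (−0.41) was −0.79, −0.89 and, with its sign turned, 0.090; it was −0.32 from 0 to 4 h and −0.15 from 4 to 8 h. The last pair of times was chosen after seeing the data. The median 0 h ratio (0.25) was 0.10 with ribosomal protein scaling, 0.14 with DESeq2 size factors and 0.41 with the GC trend subtracted. The 3 scalings act as 1 factor per library; the cause of the other shifts was not tested. With the GC trend subtracted, 11 members were at least 1.5-fold higher at 0 h and 0 lower, and the ratio of Psmc6 was 0.037. Psmb4 had a WT change of −0.051 with ribosomal protein scaling. With a fold enrichment of at least 4, 3 members had a WT peak and 2 an R255K peak, and 2 WT peaks had no counterpart. A pseudocount of 0.1 left the 25 named genes within their counting intervals. Depth limits Psmb8, Psmb9 and Psmb11 most, and the peak lists hold no depth.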
